A study of Mus musculus with 34 samples.

Results

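The 9 genes described here make, break down, take up, bind or respond to retinoic acid in the mouse cornea. They are Rdh10, Dhrs3, Aldh1a2, Aldh1a3, Cyp26b1, Stra6, Crabp1, Crabp2 and Rarb, 9 of 19938 genes with a probe set that names 1 symbol, and each had 1 such probe set. Gene expression was measured with Affymetrix arrays in CB6 mice of wildtype genotype, with no treatment, at E14.5, E15.5 and E17.5 (embryonic days), P3, P7, P14 and P28 (postnatal days), 2 months, 6 months, 1 year, 18 months and 2 years. The 8 ages up to 2 months had 3 arrays of whole cornea each and the 4 ages from 6 months had 2, which gives 32 arrays. Epithelium of P28, lifted off with dispase, and stroma of P7, cut from sections by laser capture, had 1 array each. Nothing in the labels says whether the arrays of 1 age came from different animals or from pools, so the p-values cover only array-to-array spread, which may be technical. Replicates 2 and 3 of 2 months have sample identifiers with the same number and may be 1 sample; they are counted as 2 here, and averaging them left the counts of changed genes among the 9 as they were in the comparisons it was run on.

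Retinol, vitamin A, is brought into cells with the help of Stra6 and oxidised to retinaldehyde by Rdh10, a step that Dhrs3 runs in reverse. Aldh1a enzymes then oxidise retinaldehyde to retinoic acid, Crabp1 and Crabp2 carry it in the cytoplasm, receptors such as Rarb switch genes on with it, and Cyp26 enzymes break it down. In the eye, retinoic acid guides the neural crest cells that form the corneal stroma, and vitamin A deficiency turns the adult corneal epithelium skin-like.

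Receptors for retinoic acid bind direct repeats of a short half-site, and such an element is known from the promoters of Rarb and Cyp26a1, which retinoic acid induces. The stretch from 250 bases before to 50 bases after the start was searched on both strands for a pair of half-sites with 5 letters of any kind between them. Each half-site could read AGGTCA, the usual form, or AGTTCA, which both windows shown here hold, or GGGTCA, or else GGTTCA, which the window of Rarb holds. A match was found in 32 of 32851 RefSeq windows of this length (0.0974%). Of the 9 genes, 6 had a window in the table used (Dhrs3, Aldh1a2, Cyp26b1, Stra6, Crabp1 and Rarb), 11 windows in all, and the 1 match was in Rarb. The forms searched include both half-sites of Rarb, so its match followed from that choice and is no result about the 9 genes. The windows of Rarb (chr14:16575427-16575726, minus strand) and of Cyp26a1 (chr19:37697558-37697857, plus strand), both RefSeq on GRCm38.p6, are shown 5′ to 3′ because they carry the element, with its 17 bases in capitals.
Rarb: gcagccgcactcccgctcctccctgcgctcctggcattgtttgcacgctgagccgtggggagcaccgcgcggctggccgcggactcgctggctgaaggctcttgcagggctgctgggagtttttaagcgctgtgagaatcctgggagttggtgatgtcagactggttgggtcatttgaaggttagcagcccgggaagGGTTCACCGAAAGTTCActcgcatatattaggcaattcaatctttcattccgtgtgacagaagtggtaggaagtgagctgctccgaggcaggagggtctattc
Cyp26a1: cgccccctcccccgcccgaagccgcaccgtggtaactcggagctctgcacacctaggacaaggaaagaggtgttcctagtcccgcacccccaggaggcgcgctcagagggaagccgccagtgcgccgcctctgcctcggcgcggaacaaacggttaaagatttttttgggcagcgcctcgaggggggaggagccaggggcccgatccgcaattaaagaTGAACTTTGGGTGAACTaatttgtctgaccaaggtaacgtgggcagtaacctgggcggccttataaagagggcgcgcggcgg
The element began 53 bases before the start in Rarb and 32 bases before it in Cyp26a1. In Rarb it reads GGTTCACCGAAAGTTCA on the strand of the gene, and in Cyp26a1 the opposite strand reads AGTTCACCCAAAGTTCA. This is a repeat of the same kind, with another first half-site and another letter between the half-sites. A match is a run of letters and no measured site, and a window without one lacks only these letters.

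Values are intensities on a linear scale, and differences are between means of log2(intensity + 16), so they understate changes of dim genes. Genes brighter than the array's median on at least 2 of the 32 arrays were tested, 12998 in all, among them 8 of the 9 described here. Aldh1a2 reached the median on 1 array and was not tested. Tests are limma's, with 1 mean per age fitted to the 32 arrays and Benjamini-Hochberg adjustment over the 12998 genes, and a gene counts as changed, and is said to rise or fall, at an adjusted p under 0.05 with a log2 difference of at least 1. Arrays up to P14 and arrays from P28 on differed in 8 probe sets without a gene symbol, which read 1501 or more on the 18 arrays of the earlier ages and 12.8 or less on the 14 arrays of the later ages. These are called the earlier and the later set of arrays, and a difference across the step from P14 to P28 cannot be told apart from a difference between the sets.

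Genes of neighbouring tissues were measured on some arrays. The 10 lens genes listed summed to 63246 and 54585 on replicates 2 and 3 of E14.5, against 2358 to 2838 at E15.5, and the lens median was also high on P14 replicate 2 and 2 months replicate 1. The lens sum of 6 months replicate 2 was 40987, with a median 1.98 log2 units above the median over the arrays. The 6 skeletal muscle genes summed to 38947, 2638 and 33841 on the arrays of E17.5, and were also high on replicate 1 of E15.5. Retina genes were high on P3 replicate 3 and on 6 months replicate 1. The 5 keratocyte markers (cells of the stroma), Kera, Lum, Dcn, Col1a1 and Col1a2, summed to 1717 to 8821 at E14.5 and to 37279 to 44181 at E15.5, and the 5 corneal epithelium markers to 1301 to 4722 and 17004 to 24604. Of the 32 arrays, 9 were rich in lens, muscle or retina genes. On these a list median lay at least 2 log2 units above its median over the arrays. The main comparisons of the tested genes described here were also computed on the other 23, which include 6 months replicate 2. For other genes of the pathway, for P28 against P7 and within each set of arrays, no values without the 9 arrays are given.

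Over the 12 ages 6 of the 8 tested genes changed, where 40.6% of all genes tested did. Crabp1 and Crabp2 spanned 5.04 and 5.01 log2 units between their highest and lowest age means. For each of these genes every age mean of the earlier set lay above every one of the later set, so the spans cross both sets. Dhrs3 spanned 2.14, Rarb 2.09, Rdh10 1.88 and Aldh1a3 1.71, each on the log2 scale. Stra6 (0.97, adjusted p = 7.5e-05) and Cyp26b1 (0.65, adjusted p = 0.0036) passed the F-test but not the size of 1. Stra6 passed that size too after quantile normalization (1.09), after centring each array on its median (1.06), without the 9 arrays rich in other tissues (1.12), without E14.5 replicate 3 (1.05) and without 6 months replicate 2 (1.15). Within the ages of the earlier set 5 of the 8 changed, against 19.6% of all genes: Rdh10, Dhrs3, Aldh1a3, Crabp1 and Crabp2. Within the ages of the later set Crabp1 and Rdh10 changed, 2 of the 8, against 6.77% of all genes.

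**Figure D1:**
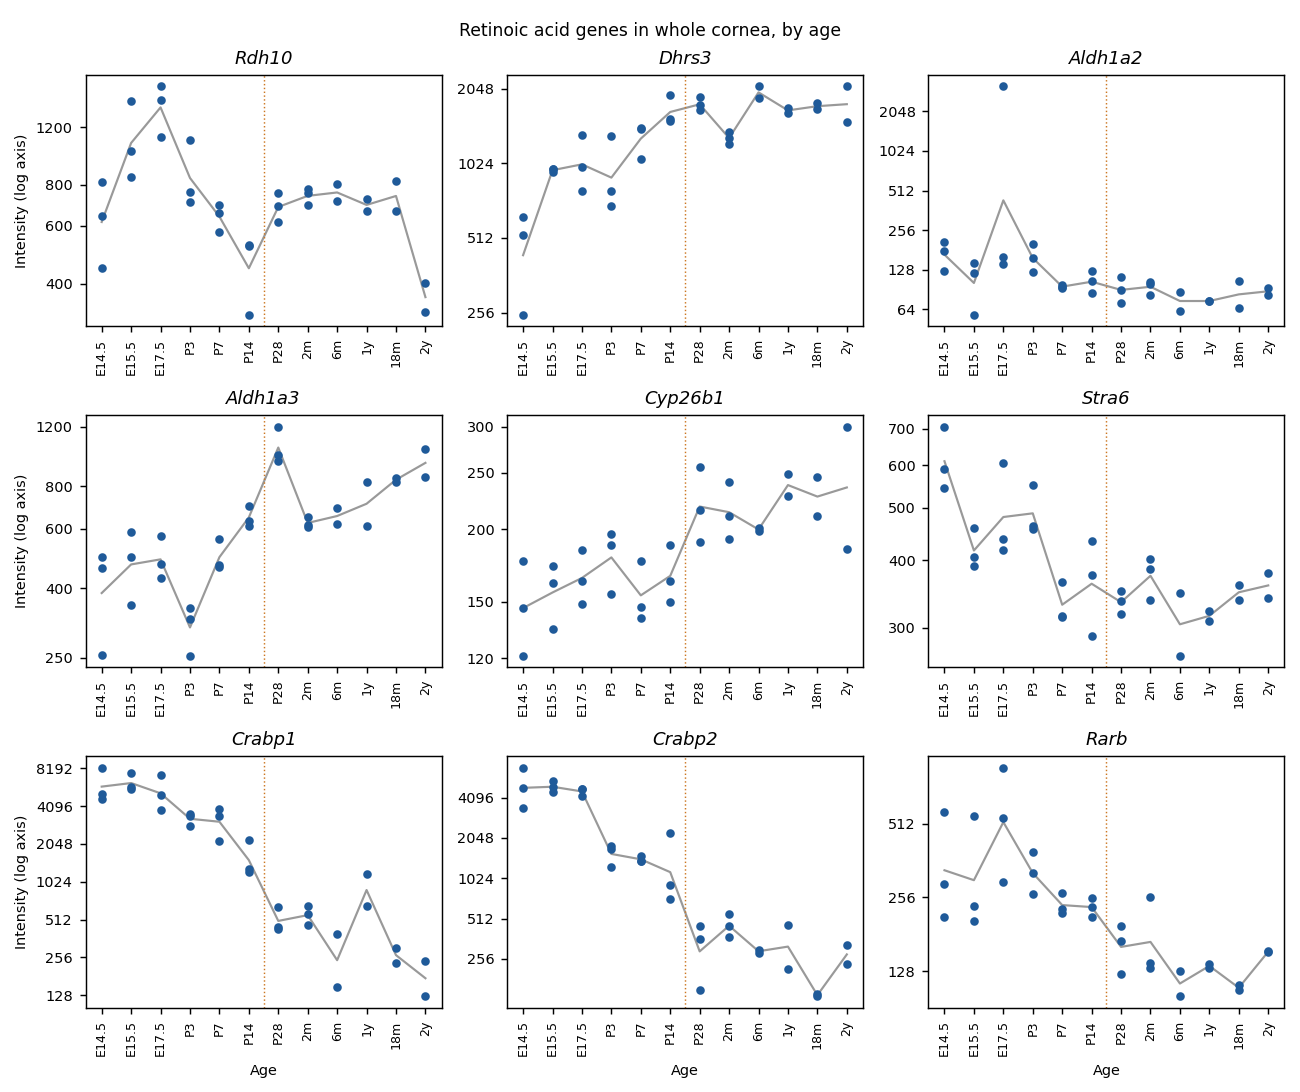
Intensity (log axis, each panel with its own range) of the 9 genes on every whole-cornea array, by age from E14.5 to 2 years. Points are arrays, the line joins age means of log2(intensity + 16), and the dotted line divides the earlier from the later set of arrays. Crabp1 and Crabp2 span 5.04 and 5.01 log2 units between their highest and lowest age means, across both sets. Aldh1a2 stands out on 1 array of E17.5, at 3192.

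Rdh10 (probe set 10344952), the dehydrogenase that turns retinol into retinaldehyde, peaked before birth. It read 816, 447 and 641 at E14.5, 1013, 846 and 1443 at E15.5, and 1122, 1457 and 1603 at E17.5. After birth it read 761, 708 and 1099 at P3, 656, 694 and 576 at P7, and 525, 523 and 321 at P14. Every array of P14 lay below every array of E15.5, and the gene fell at P14 against E15.5 by 1.24 on the log2 scale (SE 0.22, adjusted p = 0.00023). At this comparison 5.19% of all genes changed, and 3 of the 8 tested here: Rdh10, Crabp1 and Crabp2, all lower, as were 1.98% of all genes. In the later set of arrays Rdh10 averaged 687 ± 71.2 at P28, 741 ± 43.2 at 2 months (SD, n = 3 each), 759.8 ± 61.3 at 6 months, 696 ± 41.1 at 1 year and 744 ± 113 at 18 months (SD, n = 2 each). It read 402 and 329 at 2 years, lower than any other array of the later set. The F-test within the later set gave a span of 1.03 log2 units (adjusted p = 0.03), and the step of 2 years against 18 months was -0.99 (SE 0.26, adjusted p = 0.096). At E15.5 against E14.5 the difference was 0.79 (SE 0.22, adjusted p = 0.0062), under the size of 1. In the order of its age means, from E17.5 down to 2 years, no 2 neighbouring ages were apart beyond the spread of their arrays.

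Dhrs3 (probe set 10510129), which turns retinaldehyde back into retinol and is itself induced by retinoic acid, was lowest at E14.5. It read 620.3, 529 and 251 there, 943, 969.7 and 969.7 at E15.5, and 791, 991 and 1330.3 at E17.5. It read 1323, 689 and 789.6 at P3, 1065, 1412 and 1419.8 at P7, and 1926, 1511 and 1542 at P14. All arrays of E15.5 lay above all arrays of E14.5, and the arrays of P14 above those of E15.5. At E15.5 against E14.5 Dhrs3 rose by 1.11 on the log2 scale (SE 0.24, adjusted p = 0.00097), the 1 gene of the 8 to change there, where 10.4% of all genes changed and 7.35% rose. Replicate 3 of E14.5, the dimmest for Dhrs3, also had the lowest corneal epithelium and keratocyte sums (1301 and 1717). Without it the difference was 0.73 (adjusted p = 0.012), and without all arrays rich in other tissues, which leaves 1 array of E14.5, it was 0.63 (adjusted p = 0.12), so the call was lost both times; it was also lost with array weights (0.88). In bulk tissue, fewer cells of a type and less RNA per cell cannot be told apart.

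From P28 on Dhrs3 stayed high. Its mean was 1774 ± 107 at P28 and 1296 ± 74.5 at 2 months (SD, n = 3 each), 1982 ± 157 at 6 months, 1675 ± 59.5 at 1 year, 1741 ± 61.8 at 18 months and 1799 ± 426 at 2 years (SD, n = 2 each). At 2 months against E14.5 it rose by 1.54 (SE 0.24, adjusted p = 1.4e-05), and every array of 2 months lay above every array of E14.5. There 3 of the 8 changed, while 16.3% of all genes did: Dhrs3 rose, as did 10.3% of all genes, and Crabp1 and Crabp2 fell, as did 6.02%; the comparison crosses from the earlier to the later set of arrays. In the order of its age means, arrays of neighbouring ages were apart at P14 over 2 months and at P3 over E14.5, and overlapped elsewhere.

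Aldh1a2 (probe set 10586865), the retinaldehyde dehydrogenase that supplies most retinoic acid in the early embryo, was dim on every whole-cornea array but 1. Its intensity ran from 58.2 to 209 on 31 arrays and was 3192 on replicate 3 of E17.5, whose companions read 141 and 161. Of all 19938 genes Aldh1a2 had the largest excess on that array over the brighter of the other 2 arrays of the age, 4.18 log2 units. Spock3, a secreted proteoglycan, followed with 3.18, and Emcn, a surface protein of vessels, with 2.33. Next came Tmprss11a with 2.00, Lepr with 1.96 and Foxc2, a transcription factor of the mesenchyme around the eye, with 1.66. Spock3, Tmprss11a, Lepr and Foxc2 were named after their values were seen. On the same array the 4 vessel markers summed to 5029, against 1865 and 1951 on the other arrays of E17.5. Emcn is 1 of these 4 and made up most of that sum, with 3078 against 601 and 568. Of the others, Cdh5 read 910 against 383 and 466, Pecam1 343 against 223 and 238, and Kdr 698 against 659 and 680. The 7 pigment cell markers summed to 14007, against 7699 and 8124. The part of these tissues in the reading was not tested. With no filter the F-test over the 12 ages gave Aldh1a2 a span of 2.31 log2 units with an adjusted p of 0.083. No 2 neighbouring ages in its order were apart beyond their arrays' spread.

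Aldh1a3 (probe set 10564417), which makes retinoic acid in the surface ectoderm and ventral retina of the embryonic eye, was measured at every age and was brightest at P28. It read 461, 254 and 493 at E14.5, 358, 586 and 495 at E15.5, and 428, 569.8 and 473 at E17.5. It read 325, 349 and 253 at P3, 462, 558 and 468 at P7, 702, 632 and 612 at P14, and 949, 1198 and 990.2 at P28. Every array of P28 lay above every array of P14, with a difference of 0.67 (SE 0.19, adjusted p = 0.01), under the size of 1. It then read 650.0, 613 and 608 at 2 months, 619.7 and 689 at 6 months, 612 and 824 at 1 year, 825 and 847 at 18 months, and 1033 and 851 at 2 years. The step of 2 months against P28 was -0.72 (SE 0.19, adjusted p = 0.01), and both ages lie in the later set of arrays. At P28 against P7 Aldh1a3 rose by 1.05 (SE 0.19, adjusted p = 0.00017), where 10.5% of all genes changed and 3 of the 8 did, the others being Crabp1 and Crabp2. In its order of age means the arrays were apart at 2 years over 18 months, at 18 months over 1 year and at 2 months over P7.

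Cyp26b1 (probe set 10545771), an enzyme that clears retinoic acid, was dim, and above the array median on only 4 of the 32 arrays. Its intensity ran from 121 to 299.8 with a median of 186, from a mean of 148 ± 27.5 at E14.5 (SD, n = 3) to 242 ± 81.3 at 2 years (SD, n = 2). Arrays of neighbouring ages in its order were apart only at 6 months over P3, the point where the earlier and later sets of arrays meet. At 2 months against E14.5 it differed by 0.50 (SE 0.16, adjusted p = 0.011), under the size of 1, and within each set of arrays its F-test did not pass (adjusted p = 0.66 in the earlier and 0.86 in the later).

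Stra6 (probe set 10585803), the cell-surface receptor that takes up retinol from its carrier in blood, was brightest at E14.5. It read 706, 591 and 544 at E14.5, against 267 to 606 over all later ages, and was above the array median on all 32 arrays. At E15.5 against E14.5 it differed by -0.53 (SE 0.15, adjusted p = 0.0061), and no array of E15.5 reached those of E14.5. At 2 months against E14.5 it differed by -0.68 (SE 0.15, adjusted p = 0.00048). At P7 against P3 it differed by -0.54 (SE 0.15, adjusted p = 0.019), with 315, 316 and 365 at P7 against 551, 456 and 464 at P3, so the arrays did not overlap. All 3 differences are under the size of 1. In its order of age means no neighbours were apart beyond their arrays' spread.

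Crabp1 (probe set 10585438), a cytoplasmic carrier of retinoic acid that marks neural crest cells in the embryo, was bright before birth and dimmer after it. It read 5147, 4699.8 and 8304 at E14.5, 5633, 5779 and 7508 at E15.5, and 5053, 7231 and 3804 at E17.5. It read 2868, 3515 and 3401 at P3, 3438, 2182 and 3883 at P7, and 2209.7, 1230.5 and 1298 at P14. Arrays of the embryonic ages lay above those of P3, and those of E15.5 above all of P14. At P14 against E15.5 Crabp1 fell by 2.03 (SE 0.33, adjusted p = 0.00011), with keratocyte sums of 27707 to 38560 at P14 and 37279 to 44181 at E15.5. At E15.5 against E14.5 Crabp1 differed by 0.09 (SE 0.33, adjusted p = 0.84). The keratocyte sums did not overlap between these 2 ages, and their part in the values of Crabp1 was not tested.

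Crabp1 fell again by 1.58 at P28 against P14 (SE 0.33, adjusted p = 0.00085). Its arrays read 649, 434 and 444 at P28, all below those of P14, and the keratocyte sums were 15260 to 18120 at P28 against 27707 to 38560 at P14. Of all genes 7.65% changed at this step and 3.5% fell, and of the 8 Crabp1 and Crabp2 did, both lower; the step also divides the 2 sets of arrays. At 2 months against E14.5 Crabp1 fell by 3.36 (SE 0.33, adjusted p = 9.4e-09), and at P28 against P7 it fell by 2.58 (SE 0.33, adjusted p = 2.4e-06).

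In adult life Crabp1 was uneven. It read 461, 568 and 655 at 2 months, 149 and 393 at 6 months, 1188 and 652 at 1 year, 307 and 232 at 18 months, and 126 and 242 at 2 years. The arrays of 1 year lay above those of 6 months, 18 months and 2 years. The keratocyte sums were 14625 to 19829 at 2 months, 3767 and 7006 at 6 months, and 15773 and 11269 at 1 year. They were 3861 and 5514 at 18 months, and 1903 and 9949 at 2 years. Like Crabp1, these sums were lower at 6 months and at 18 months than at 1 year. Between 2 months and 1 year the sums overlapped, while the mean of Crabp1 was 562 and 920. The array of 2 years with a sum of 9949 read 242 for Crabp1, and that of 18 months with 3861 read 307. The part of keratocytes in the values of Crabp1 was not tested. Within the later set Crabp1 spanned 2.23 log2 units (adjusted p = 0.0019). At 18 months against 1 year it fell by 1.66 (SE 0.40, adjusted p = 0.039; 0.854% of all genes changed), a call lost without any 1 of the 4 arrays (adjusted p = 0.075 to 0.43) and after quantile normalization (adjusted p = 0.06). At 2 years against 2 months it fell by 1.58 (SE 0.37, adjusted p = 0.0091), where 2.83% of all genes changed. In the order of its age means the arrays were apart at E17.5 over P3, at P14 over 1 year and at P28 over 18 months.

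Crabp2 (probe set 10493108), the carrier that hands retinoic acid to its receptors in the nucleus and a known target of retinoic acid, fell in 2 steps. It read 4806, 3439.9 and 6862 at E14.5, 4913, 4527 and 5404 at E15.5, and 4191, 4719 and 4766 at E17.5. It read 1769.8, 1252 and 1695 at P3, 1512, 1374 and 1372 at P7, and 2241, 909 and 718 at P14. The arrays of P3 all lay below those of E17.5, and Crabp2 fell by 1.54 (SE 0.35, adjusted p = 0.0066; 1.89% of all genes changed at this step). The keratocyte sums overlapped there, with 31614 to 36404 at P3 and 32032 to 35986 at E17.5. Without the arrays rich in other tissues, which leaves 1 array of E17.5 and 2 of P3, the difference was -1.65 with an adjusted p of 0.088.

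At P28 against P14 Crabp2 fell by 1.91 (SE 0.35, adjusted p = 0.00023). It read 450.5, 358 and 150.4 at P28, 558, 447 and 371 at 2 months, 285 and 299 at 6 months, 462 and 215 at 1 year, 134 and 140.2 at 18 months, and 328 and 233 at 2 years. Every array from P28 on lay below every array up to P14. Crabp2 fell by 2.10 at P14 against E15.5 (SE 0.35, adjusted p = 0.00014), it fell by 3.37 at 2 months against E14.5 (SE 0.35, adjusted p = 2.2e-08) and it fell by 2.22 at P28 against P7 (SE 0.35, adjusted p = 2.8e-05). Within the later set the span of 1.61 log2 units did not pass (adjusted p = 0.068). In its order the arrays were apart at E17.5 over P3, at P14 over 2 months and at 2 years over 18 months.

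**Figure D2:**
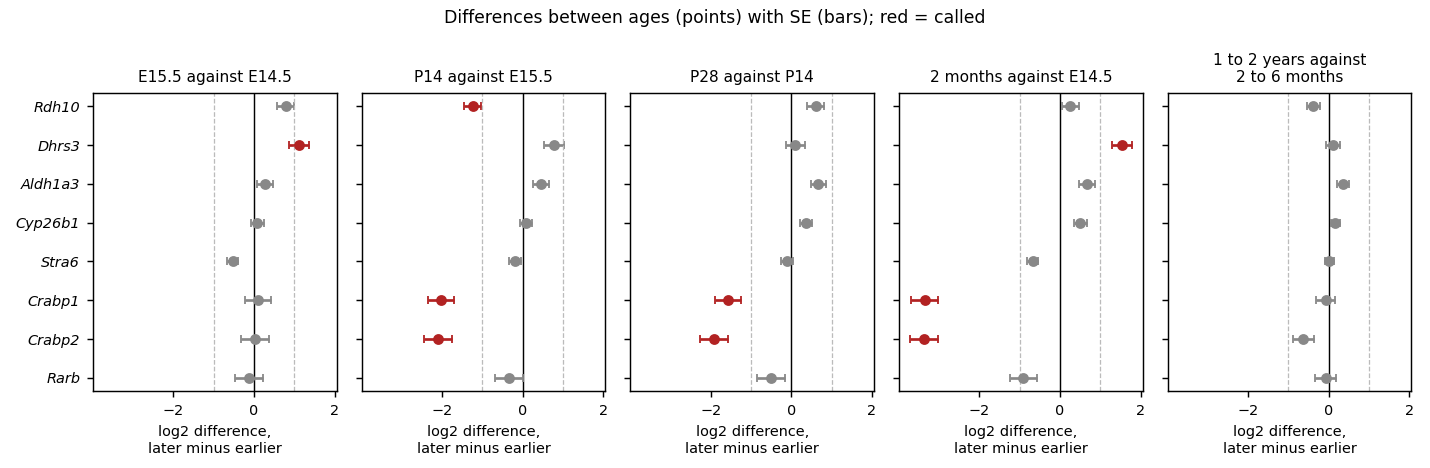
Differences of log2(intensity + 16), later minus earlier age, with SE bars from limma, for the 8 tested genes in 5 comparisons; red points changed and dashed lines mark a difference of 1. Crabp1 and Crabp2 lie left of -1 in 3 panels, from -1.58 to -3.37, Dhrs3 lies right of 1 at E15.5 and at 2 months against E14.5 (1.11 and 1.54), and no gene is red in the ageing panel.

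Rarb (probe set 10417713), a retinoic acid receptor whose own promoter carries the element shown above, was above the array median on 12 of the 32 arrays. It read 574, 291 and 214 at E14.5, 553, 237 and 206 at E15.5, and 543, 296 and 868 at E17.5. Each embryonic age thus held at least 1 array well above the others. The bright arrays of E15.5 and E17.5 were those rich in skeletal muscle genes, which summed to 16420 on the array that read 553, to 38947 and 33841 on those that read 543 and 868, and to 1563 to 2638 on the other arrays of these 2 ages. At E14.5 the muscle sum was 7878 on the array that read 574 and 11314 and 2546 on those that read 291 and 214, and the part of muscle in these values was not tested. All 6 muscle markers were above the array median on each array of the 3 ages with a sum of 7878 or more.

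**Figure D3:**
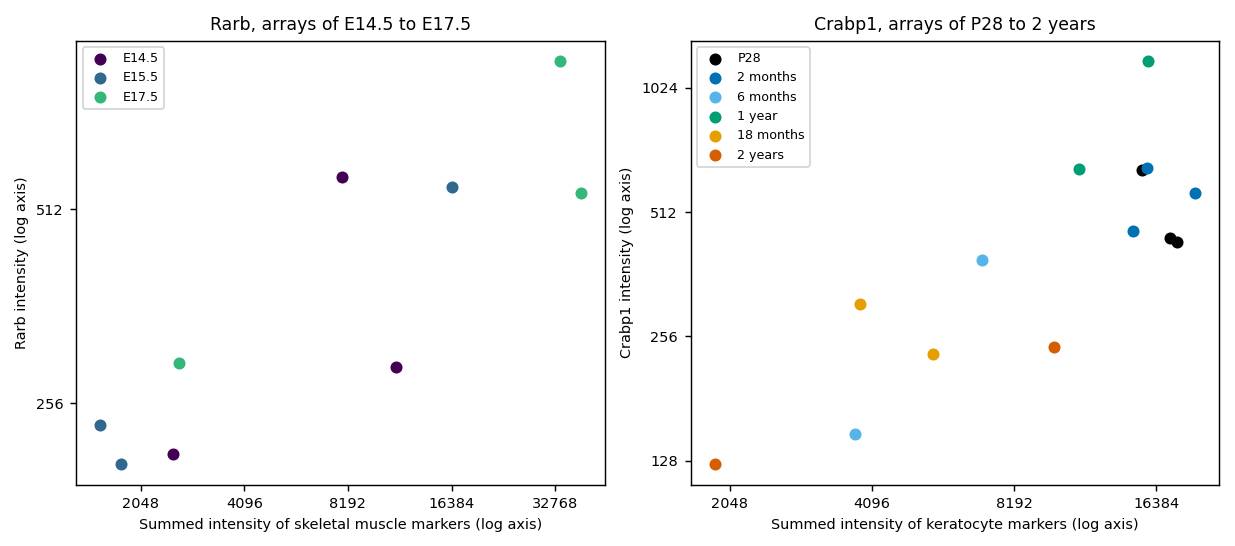
Left, intensity of Rarb against the summed intensity of 6 skeletal muscle markers on the 9 arrays of E14.5 to E17.5; right, intensity of Crabp1 against the summed intensity of 5 keratocyte markers on the 14 arrays of P28 to 2 years (log axes, 1 point per array, coloured by age). Rarb is highest, at 868, on an array with a muscle sum of 33841. Crabp1 is highest, at 1188, on an array of 1 year with a keratocyte sum of 15773 and lowest, at 126, at a sum of 1903. The array with the highest keratocyte sum, replicate 2 of 2 months, reads 568 for Crabp1.

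After birth Rarb read 323, 391 and 264 at P3, 230.0, 266 and 221 at P7, and 235, 256 and 213 at P14. It read 196, 125 and 169 at P28, 132, 258 and 139 at 2 months, 101 and 128 at 6 months, 137 and 133 at 1 year, 107 and 112 at 18 months, and 154 and 153 at 2 years. All arrays of P28 lay below those of P14, with a difference of -0.50 that did not pass (SE 0.34, adjusted p = 0.29). At 2 months against E14.5 the difference was -0.91 (SE 0.34, adjusted p = 0.034), under the size of 1. It passed that size with array weights, after quantile normalization (-1.06), without E14.5 replicate 3 (-1.21) or 2 months replicate 2 (-1.19), and without the arrays rich in other tissues (-1.52); the last setting also gave -1.32 at E15.5 against E14.5 (adjusted p = 0.0023), against -0.13 on all arrays. Without those arrays E14.5 kept 1 array, the one that read 574, so both values set a single array against the other age, with the spread taken from the other ages. In its order the arrays were apart at 2 years over 1 year and at 1 year over 6 months. Within the earlier set its F-test did not pass (adjusted p = 0.074).

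Ageing was read as the 3 ages from 1 year on, averaged, against 2 and 6 months, averaged. There limma called 0 of the 8 genes, while 0.677% of all genes changed. At an unadjusted p under 0.05 there were 3, and 2476 of the 12998 genes tested: Crabp2 with -0.63 (SE 0.26, adjusted p = 0.18), Rdh10 with -0.38 (SE 0.16, adjusted p = 0.2) and Aldh1a3 with 0.36 (SE 0.15, adjusted p = 0.17). Crabp1 differed here by -0.08 (SE 0.25, adjusted p = 0.91), and its arrays of 1 year were brighter than those of 6 months.

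Of the 11 steps between neighbouring ages, 4 held the changes described so far: E15.5, P3, P28 and 18 months, each against the age before. In the other 7 steps limma called 0 of the 8 genes. The share of all genes called was 0.569% at E17.5 against E15.5, 1.98% at P7 against P3, 0% at P14 against P7 and 2.12% at 2 months against P28. It was 1.25% at 6 months against 2 months, 0.208% at 1 year against 6 months and 0.446% at 2 years against 18 months. At an unadjusted p under 0.05 these steps, in that order, held 1, 3, 2, 1, 2, 1 and 2 of the 8, and 1949, 3559, 819, 4902, 2799, 1202 and 1069 of the 12998 genes. The largest of these differences were those of Crabp1, 1.79 at 1 year against 6 months (SE 0.40, adjusted p = 0.056), -1.14 at 6 months against 2 months (SE 0.37, adjusted p = 0.089) and -1.01 at P14 against P7 (SE 0.33, adjusted p = 0.54).

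Likeness of profiles over the 12 age means is given as Pearson's r, as a description. Crabp1 and Crabp2 had r = 0.950, Crabp2 and Rarb r = 0.933, and Dhrs3 and Stra6 r = -0.932; all points share the arrays and the step between the 2 sets. Among all tested genes the profile most like that of Crabp2 was that of Tgfb2, a growth factor, with r = 0.995, followed by Eif4e3 and Zfp57 with 0.989 each. For Crabp1 it was Tmem223, Zbtb10 and Arhgap28 with 0.985 each, and for Rarb Cacna2d1, a calcium channel subunit, with 0.985, Pkia with 0.970 and Dclk1 with 0.968. Dhrs3 was most like Anxa4 (0.982), Cd9 (0.978) and Gas6 (0.977), and Aldh1a3 most like Coa5 (0.991), Zhx2 (0.975) and Rhoa (0.969). Stra6 was most like Ppif (0.967), Epha5 (0.962) and Islr2 (0.962), Cyp26b1 most like Gpd1l (0.963), Zfyve9 (0.956) and Pdlim5 (0.955), and Rdh10 most like Lztr1 (0.867), Brd2 (0.860) and Htra2 (0.840).

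The layers differ in tissue, age and isolation together and have 1 array each, so no test was possible. The epithelium array had a corneal epithelium sum of 42975 and a keratocyte sum of 2485, against 12211 and 21312 on the stroma array. The stroma array also held lens genes (52565, against 3678 in epithelium) and skeletal muscle genes (12203, against 1825), and its 3 measured markers of keratinised skin summed to 5513, against 1354 in epithelium. The part of lens, muscle and skin in the layer values was not tested. Of the 9 genes 0 differed 4-fold, where 1.94% of 11107 genes above the median on either array did. Crabp1 read 271 in epithelium and 934 in stroma (-1.73 on the log2 scale), and Crabp2 450.1 in epithelium and 1459 in stroma (-1.66), while the median over all genes was 0.0034. In whole cornea the same ages, P28 against P7, differed by -2.58 for Crabp1 and -2.22 for Crabp2.

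Rdh10 read 958 in epithelium and 535 in stroma (0.82), against a difference of 0.10 between the same ages of whole cornea. Aldh1a3 read 730.1 in epithelium and 465 in stroma (0.63), against 1.05 in whole cornea. Rarb read 272 in epithelium and 372 in stroma (-0.43), and Dhrs3 1337 in epithelium and 1132 in stroma (0.24). Stra6 read 484 in epithelium and 516 in stroma (-0.09), Aldh1a2 332 in epithelium and 360.1 in stroma (-0.11), and Cyp26b1 292 in epithelium and 289 in stroma (0.01). The layer arrays had medians of 342 to 357, above the 225 to 265 of the whole-cornea arrays, and a floor of 41.8 and 42.6. Aldh1a2, Cyp26b1, Stra6 and Rarb read higher on both than on any whole-cornea array of these ages. Crabp1 read lower in each layer than on every whole-cornea array of the layer's age.

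**Figure D4:**
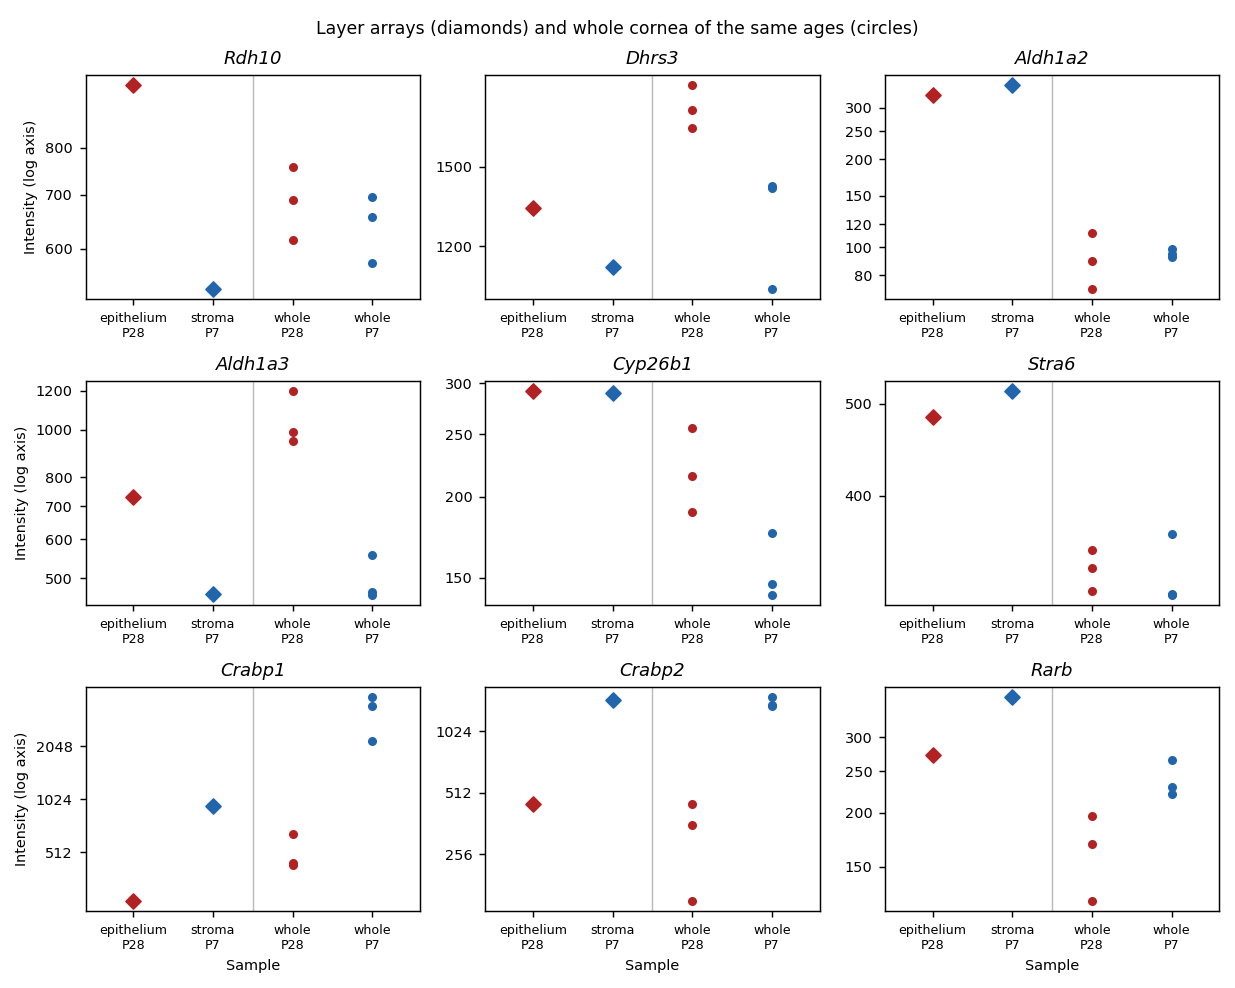
Intensity (log axis, each panel with its own range) of the 9 genes on the epithelium array of P28 and the stroma array of P7 (diamonds) and on the 3 whole-cornea arrays of P28 and of P7 (circles). Crabp1 and Crabp2 are lower in epithelium than in stroma, at 271 against 934 and 450.1 against 1459, and their whole-cornea arrays of P28 lie below those of P7.

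The other genes of the pathway were taken from a list of 60, of which 54 had a probe set used here and 37 were tested. At E15.5 against E14.5, 8 of the 37 rose and 1 fell, where 10.4% of all genes changed and 7.35% rose, with a list median of 0.33 against 0.01 for all genes. The alcohol dehydrogenases Adh1 and Adh7, which oxidise retinol, rose by 3.41 and 3.66, and Rbp2, a cytoplasmic retinol carrier, by 3.41. Cyp26a1 rose by 1.51, the receptor Rarg by 1.16, and Foxc1, Tfap2b and Dkk2, genes of the mesenchyme around the eye that respond to retinoic acid, by 1.68, 1.37 and 2.57. The arrays of Cyp26a1 overlapped, with 225, 282 and 314 at E15.5 against 33.1, 53.8 and 281 at E14.5. Aldh1a1, the retinaldehyde dehydrogenase of lens and corneal epithelium, fell by 3.01 (adjusted p = 1.3e-08), with 442, 258 and 212 at E15.5 against 1357, 2854 and 3773 at E14.5, where the arrays with 2854 and 3773 were those rich in lens genes.

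At P14 against E15.5, 6 of the 37 rose and 2 fell, where 5.19% of all genes changed and 1.98% fell. Aldh1a1 rose by 2.29, Aldh1a7 by 1.48, Adh1 by 1.15, Adh7 by 2.84, Rbp2 by 2.60 and Ttr, a carrier of the retinol-binding protein in blood, by 2.77. Ttr was uneven, with 466, 35.9 and 57.9 at E15.5 and 571, 1477 and 658 at P14. The array with 466 was also high in skeletal muscle genes and the one with 1477 in lens genes. The part of other tissues in the values of Ttr was not tested. At P28 against P14, 3 rose and 2 fell, where 7.65% of all genes changed. Tgm2, a transglutaminase induced by retinoic acid, rose by 2.85 (adjusted p = 9.2e-11), and Cyp26a1 fell by 2.64 (adjusted p = 7.7e-05), reading 53.4, 35.6 and 19.2 at P28 against 337, 246 and 313 at P14. Rarb differed by -0.50 at that step, which did not pass. For all these genes the step also divides the earlier from the later set of arrays.

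At 2 months against E14.5, 9 of the 37 rose, where 10.3% of all genes did, led by Adh7 with 6.90, Rbp2 with 6.12 and Adh1 with 4.55, and Aldh1a7 fell by 1.03. Over the 12 ages 25 of the 37 changed, and 40.6% of all genes. With ageing 1 did, Ttr, which fell by 2.12 (adjusted p = 0.033), where 0.677% of all genes changed. Rpe65, a pigment epithelium marker, read 63.7 to 195 from 1 year on, against 268 to 658 at 2 months and 85.5 and 337 at 6 months. Pmel, of the same list of markers, was not lower. It read 383 to 578 from 1 year on, against 301 to 533 at 2 months and 382 and 408 at 6 months. The 7 pigment cell markers together summed to 1049 to 1548 from 1 year on, against 1841 to 2346 at 2 months and 1112 and 2050.2 at 6 months, and their part in the fall of Ttr was not tested. In the layers Adh7 and Rbp2 were over 4-fold higher in epithelium than in stroma, by 2.04 and 2.03 log2 units, and Ttr was lower by 3.50, so the retinol-oxidising Adh7 differed between the layers by more than any of the 9 genes did.

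**Figure D5:**
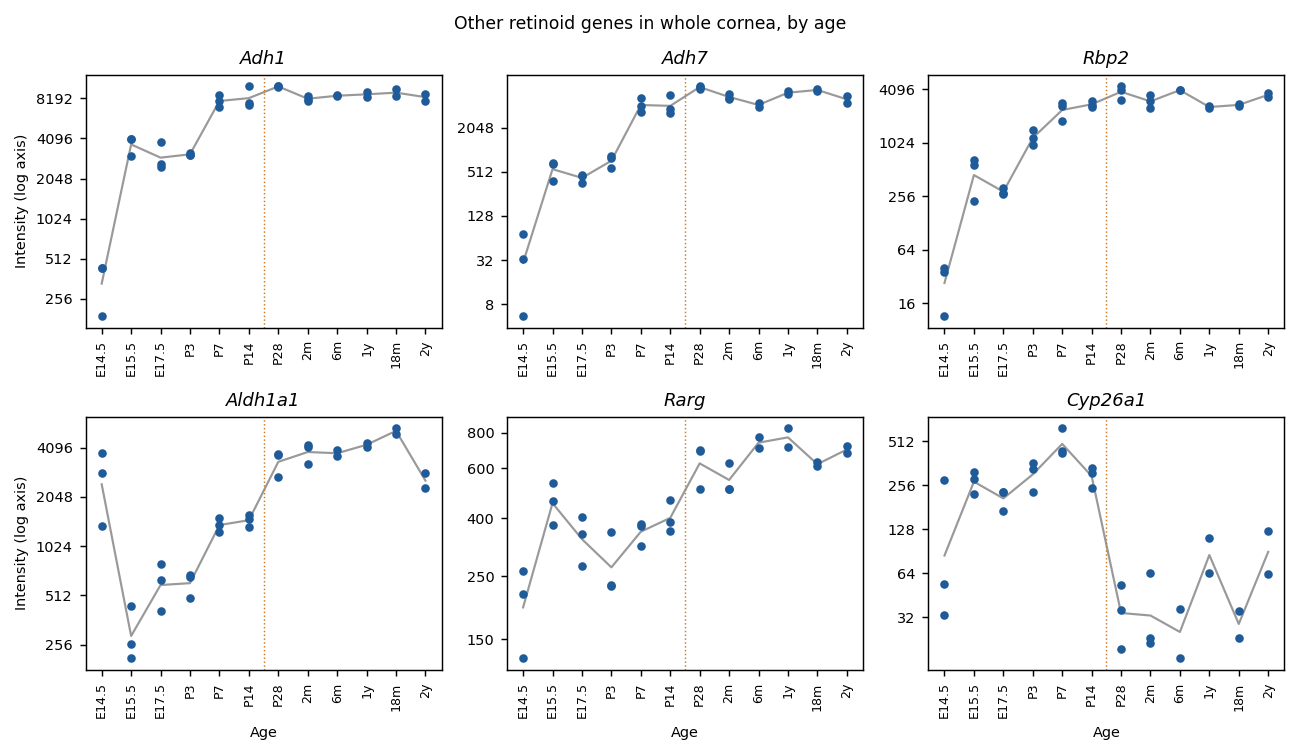
Intensity (log axis) of 6 other retinoid genes on every whole-cornea array, by age from E14.5 to 2 years, with points for arrays, a line through age means and a dotted line between the earlier and later sets of arrays. Adh1, Adh7 and Rbp2 lie lowest at E14.5 and high from P7 on, Aldh1a1 dips at E15.5 to 212 to 442, and Cyp26a1 lies at 246 to 337 at P14 and at 19.2 to 53.4 at P28.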

How the data were processed

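RNA of whole cornea at 12 ages (32 arrays) and of 2 corneal layers was amplified and hybridised to Affymetrix arrays. The authors deposited linear intensities, 1 for each probe set on an array. The submitters' processing notes name Affymetrix Expression Console 1.1 and PLIER; background and normalization settings and a genome build are not given in the sources used here. The table held 35557 probe sets and 2 missing values. Symbols came from the platform's annotation, where 21789 probe sets had 1 symbol, 1621 several and 12147 none, and those with 1 symbol were used.

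Intensities were analysed as log2(value + 16) without further normalization. limma 3.58.1 in R 4.3.3 (lmFit, eBayes; 20 residual and 4.1 prior degrees of freedom) gave two-sided moderated tests and an F-test over the ages. Alternatives were offsets, normalizations, filters, joining of probe sets, moderation, array weights, a replicate block, arrays averaged or left out and the compared ages alone. The fit was tested on simulated data. The arrays per age, 2 or 3, limit the precision.

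The 9 genes, the other lists and the tests were chosen with earlier results of these data known. Named genes are the 9, the listed retinoid genes, the markers and, per gene, the 3 tested genes with the highest Pearson r over age means. Motifs were searched in RefSeq promoter windows (GRCm38.p6). The same replicate number marked no pairing: over 84 pairs of arrays with the same number, correlations of deviations from the age means ran from -0.289 to 0.400, with a median of 0.0013. The design text of the series speaks of a single time for the layers and the sample labels of P28 and P7, which were followed.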

Additional observations from a re-analysis of the deposited data

How the results depend on the processing

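The count of changed genes among the 8 tested moved under several settings. Stra6 joined those changed over the 12 ages after quantile normalization and after centring each array on its median. Rarb joined those changed at 2 months against E14.5 after quantile normalization. Without the arrays rich in other tissues E14.5 kept 1 array. Dhrs3 and Rarb then differed by 0.63 and -1.32 at E15.5 against E14.5, in place of 1.11 and -0.13. Array weights gave 0 in place of 1 at E15.5 against E14.5, 5 in place of 3 at 2 months against E14.5 and 8 in place of 5 over the steps between neighbouring ages; the estimation of these weights stopped before it converged. The later set of arrays alone gave 2 in place of 6 over the ages, and 2 years against 2 months gave 1 where the wider ageing comparison gave 0. In the layers 2 of the 9 genes differed by at least 1 log2 unit and 0 by at least 2. Leaving out each array in turn gave 6 to 7 over the ages, 0 to 1 at E15.5 against E14.5, 3 to 3 at P14 against E15.5, 2 to 2 at P28 against P14, 3 to 4 at 2 months against E14.5, 0 to 0 with ageing and 4 to 7 over the steps. No difference that had passed changed its sign under any setting. Over all genes the ageing count was 88, against 52 with an offset of 64, 48 after quantile normalization, 57 without 1 year replicate 2, 53 without 2 years replicate 1 and 368 at 2 years against 2 months. With the replicate number as a block the counts stayed 6, 1, 3, 2, 3 and 0, and the steps gave 4 in place of 5, where Crabp1 at 18 months against 1 year lost its call (adjusted p = 0.056); the numbers mark no shared animal or day in the labels. The causes of these moves were not tested. The 2 or 3 arrays per age limit the precision, and the offset of 16 understates the differences of dim genes such as Cyp26b1 and Rarb.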
